A study of Mus musculus with 2 samples.

Results

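The genes described here are 10 acute phase genes of the mouse, out of the 43346 genes measured: the serum amyloid A genes Saa1, Saa2, Saa3 and Saa4, the orosomucoid genes Orm1 and Orm2, the pentraxins Crp and Apcs, and the endotoxin-binding proteins Lbp and Cd14. They were chosen by symbol as familiar members of the response, and all 10 were found in the gene table of each library. The study sequenced total RNA longer than 200 nt from whole livers of B6NCrl mouse embryos at embryonic day 15.5. There was 1 group with 2 libraries, labelled as biological replicates: 78 embryos were pooled for replicate 1, and 62 for replicate 2. Both pools mixed male and female embryos and were labelled healthy. The RNA input was 10 ng for each library, and spike-in transcripts were added. The series as analysed here held no inflamed, treated, other-age or other-tissue group, so the levels describe 1 unchallenged state and no induction was measured.

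The acute phase response is the change in the plasma proteins that the liver makes after infection or injury. Interleukin 6 acts through its receptor chain gp130 and STAT3, while interleukin 1 and tumour necrosis factor act through NF-kB, and the C/EBP factors bind many of the promoters concerned. In the adult mouse Saa1, Saa2 and Apcs are the strongly induced reactants and Crp responds little, whereas in humans CRP is a main reactant. Positive reactants such as these increase in the response, and negative reactants such as albumin decrease.

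Library totals were 34039426 expected counts for genes in replicate 1 and 44200838 in replicate 2, with spike-ins at 2.24% and 2.03% of all counts. Levels are given in TPM, the number of a gene's transcripts in 1000000 transcripts, which takes transcript length into account. Here "detected" means 1 TPM or more in both libraries. Each of 8 hepatocyte markers reached 1 TPM in both libraries, and their summed level was 25738 TPM in replicate 1 and 22020 TPM in replicate 2. Blood lineages were present too, with summed erythroid markers at 151958 and 155195 TPM and summed neutrophil markers at 5348 and 5774 TPM. In a whole tissue, fewer cells of a type and less RNA per cell cannot be told apart.

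The pentraxins and Lbp held nearly all of the RNA of the 10 genes, while Saa1, Saa2, Orm1 and Orm2 were at or near 0. Genes strongly induced in the adult stood at both ends, with Apcs the highest and Saa1 and Saa2 at the bottom. Of the 10, Apcs, Crp, Lbp, Saa3, Saa4 and Cd14 reached 1 TPM in each library, which 53.1% of the 21474 protein-coding genes were. Apcs, Crp and Lbp were at 10 TPM or more in both, as were 27.8% of protein-coding genes. None was at 100 TPM or more in both libraries, a level that 4.34% of protein-coding genes reached, although Apcs passed it in replicate 1. Saa2 and Orm2 had 0 counts in both libraries, as did 20.5% of protein-coding genes. The share of the 10 genes above each limit was thus not far from that of protein-coding genes at large.

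Summed over the 10 genes, the level was 251 TPM in replicate 1 and 209 TPM in replicate 2, a mean of 230.3 ± 29.8 (SD, n = 2). Apcs, Crp and Lbp together made up 91.3% of that sum in replicate 1 and 93.0% in replicate 2. The other 7 genes shared what was left. Saa1, Saa2, Orm1 and Orm2 together made up 0.284% and 0.242% of it. The order of the levels was Apcs, Crp, Lbp, then Saa3 and Saa4, then Cd14, then Orm1. Saa3 and Saa4 could not be ranked, because the ranges of their 2 values overlapped. Saa1, Saa2 and Orm2 were not told apart at the bottom, where the largest count was 1.

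**Figure D1:**
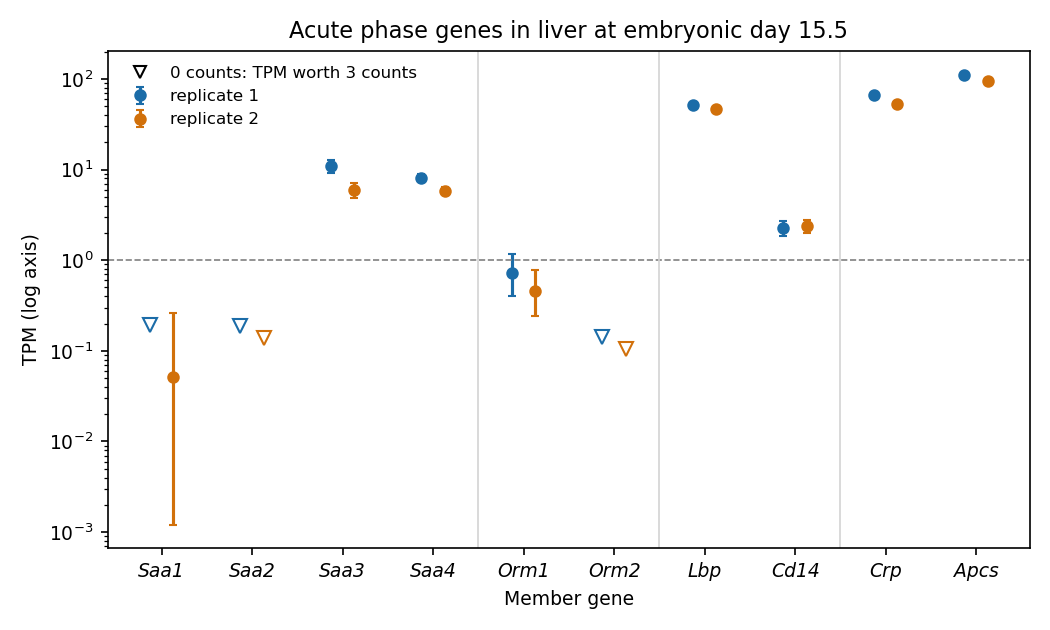
TPM of each of the 10 genes in replicate 1 and replicate 2 on a log axis, with 95% exact Poisson intervals and with open triangles at the TPM worth 3 counts where a gene had 0 counts. Apcs, Crp and Lbp lie between 46.1 and 111 TPM, Saa3, Saa4 and Cd14 between 2.25 and 10.9 TPM, and Orm1, Saa1, Saa2 and Orm2 below 1 TPM.

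Among protein-coding genes, Apcs stood above 96.0% in replicate 1 and above 95.3% in replicate 2. Crp stood above 93.1% and 91.8%, and Lbp above 91.3% and 90.6%. Saa3 and Saa4 lay nearer the middle: Saa3 was above 72.2% and 64.6%, and Saa4 above 68.1% and 64.4%. Cd14 was above 52.8% and 54.1% of protein-coding genes. Orm1, above 43.7% and 41.4%, stood below the median protein-coding gene, which was at 1.68 TPM in replicate 1 and 1.54 TPM in replicate 2.

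**Figure D2:**
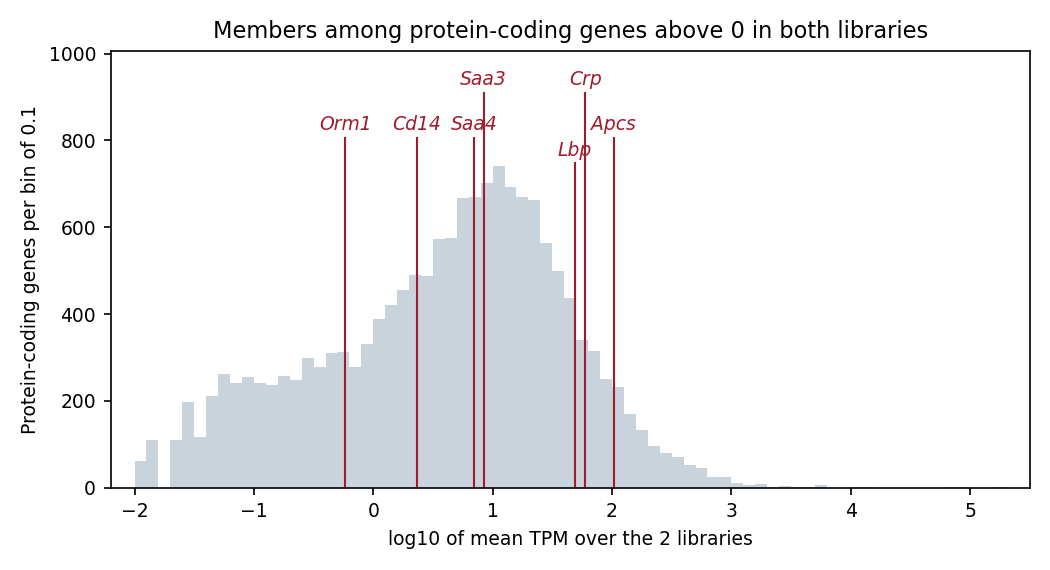
Number of protein-coding genes per bin of 0.1 in log10 of the mean TPM over the 2 libraries, for genes above 0 in both, with red lines at the 7 of the 10 genes above 0 in both. Apcs, Crp and Lbp lie in the right-hand shoulder of the distribution and Orm1 lies left of its main peak.

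Apcs encodes serum amyloid P component, a plasma pentraxin that binds amyloid fibrils and cell debris. Apcs (ENSMUSG00000026542.6, GRCm38 chr1:172893961-172895041, minus strand) was at 111 TPM in replicate 1 and 95.0 TPM in replicate 2, from 3014 and 3477 counts, a mean of 103 ± 11.3 TPM (SD, n = 2). It was the highest of the 10 genes in each library. Crp encodes C-reactive protein, a pentraxin that binds phosphocholine on microbes and dying cells. Crp (ENSMUSG00000037942.5, chr1:172698055-172833031, plus strand) was at 66.5 TPM in replicate 1 and 53.4 TPM in replicate 2, from 3307 and 3581 counts, a mean of 60.0 ± 9.26 TPM (SD, n = 2). Both genes were lower in replicate 2, and the 2 genes did not overlap in level. Apcs was 1.67-fold above Crp in replicate 1 and 1.78-fold above it in replicate 2, so the size of this difference varied little between libraries (1.72 ± 0.0773, SD, n = 2).

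The Crp gene is annotated as spanning far more than its main transcript. Crp-201, 1695 nt, covers chr1:172698055-172699962 and held 99.9% of the gene's TPM in replicate 1 and 99.8% in replicate 2. The noncoding Crp-202, which runs on to the far end of the gene's span and contains a processed pseudogene (Gm38051), was at 0.0518 and 0.0826 TPM. The Crp level was therefore almost wholly that of the short coding transcript. Apcs lies 194 kb beyond the end of Crp-201 on the opposite strand and had 1 transcript in the tables, Apcs-201. The Crp-201 and Apcs-201 transcripts were identical at 42.3% of aligned positions.

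RefSeq promoter entries (GRCm38.p6) were found for 7 of the 10 genes: Crp, Apcs, Saa1, Saa2, Saa3, Saa4 and Orm2. Entries were not used here for Orm1, Lbp and Cd14. The bases upstream of the RefSeq start were searched on both strands for 5 motifs. These were the C/EBP motif TTGCNNAA, the STAT motif TTCNNNGAA, the NF-kB motif (GGG, any 5 bases, then CC), a half-site of HNF1, which reads GTTAAT, and the TATA box, which reads TATAAA. In the sequences printed here and further on, capitals mark matches to TTGCNNAA on either strand and to TATAAA, and all run 5′ to 3′ on the gene's own strand. Positions are counted back from the base before the start, which is -1. The bases just after the RefSeq start were found in an annotated transcript of each gene except Apcs. No match of one motif overlapped a match of another. A match describes letters in the window, and none was tested for binding. The pair of pentraxin sequences is shown because these were the highest genes of the group with an entry, and they differ in what they hold.
Crp, chr1:172697806-172698055, plus strand: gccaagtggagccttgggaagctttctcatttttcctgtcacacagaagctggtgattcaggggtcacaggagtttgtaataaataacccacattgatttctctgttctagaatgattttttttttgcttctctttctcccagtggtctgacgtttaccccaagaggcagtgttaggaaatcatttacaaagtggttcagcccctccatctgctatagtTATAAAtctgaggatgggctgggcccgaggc
Apcs, chr1:172895055-172895304, minus strand: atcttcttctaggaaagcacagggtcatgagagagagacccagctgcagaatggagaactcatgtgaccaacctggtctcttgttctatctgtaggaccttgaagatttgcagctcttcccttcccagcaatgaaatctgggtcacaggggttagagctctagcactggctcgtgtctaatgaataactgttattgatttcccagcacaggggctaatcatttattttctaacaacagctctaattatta
The Crp sequence held TATAAA from -31 to -26, a motif found in 12.4% of the 32817 promoters of the same length. The Apcs sequence held neither of the motifs in capitals. It held TTCTAGGAA from -244 to -236, a match to the STAT motif, which 7.01% of promoters held and which none of the other 6 sequences did. GTTAAT was in none of the 7 sequences and in 6.44% of promoters. The NF-kB motif was in the Crp, Saa4, Saa1 and Saa2 sequences and in 45.8% of promoters, so its presence singles out few genes. The upstream bases of Crp and Apcs were identical at 48.8% of aligned positions.

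Relatives and partners of the pentraxins were listed beside them. Of 15 such genes, 11 reached 1 TPM in each library, as did 53.1% of protein-coding genes. Highest were C1qb, a chain of the complement component that pentraxins recruit, at 124 TPM in replicate 1 and 101 TPM in replicate 2, Fcer1g, the signalling chain of Fc receptors, at 109 and 106 TPM, and Fcna, a ficolin of the lectin pathway, at 83.6 and 65.1 TPM. Ptx3, the long pentraxin of immune and stromal cells, was at 0.104 and 0.165 TPM. The neuronal pentraxin Nptx2 was the lowest on the list, at 0 and 0.0310 TPM. Among the pentraxins named, then, the plasma members Apcs and Crp were high, and the long and neuronal members were below 1 TPM.

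Lbp, the endotoxin carrier, was abundant and Cd14, the receptor that takes endotoxin from it, was scarce. Lbp encodes the plasma protein that binds bacterial lipopolysaccharide and passes it to CD14, which hands it to the TLR4 receptor. Lbp (ENSMUSG00000016024.5, chr2:158306493-158332852, plus strand) was at 51.9 TPM in replicate 1 and 46.1 TPM in replicate 2, from 3710 and 4090 counts, a mean of 49.0 ± 4.07 TPM (SD, n = 2). Cd14 (ENSMUSG00000051439.6, on chromosome 18, minus strand) was at 2.25 and 2.37 TPM, from 103 and 147 counts, a mean of 2.31 ± 0.0894 TPM (SD, n = 2). Cd14 differed little between the libraries, and its values did not approach those of Lbp. Lbp was 23.1-fold above Cd14 in replicate 1 and 19.4-fold above it in replicate 2. Markers of monocytes and macrophages, the cells best known for Cd14, mostly stood above it, up to Cd5l at 82.0 and 68.3 TPM. Cd163, at 0.249 and 0.175 TPM, was the sole marker of that list below Cd14 in both libraries.

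Lbp was the member whose level was divided among the most transcripts, 5 in all. Lbp-201, the full coding transcript of 2525 nt, was at 46.8 TPM in replicate 1 and 37.7 TPM in replicate 2. It held 90.2% of the gene's TPM in replicate 1 and 81.8% in replicate 2, a mean of 86.0% ± 5.97 (SD, n = 2). The share of Lbp-203, a model of 436 nt that starts inside the gene at base 158314206, was 3.71% and 12.7%. Lbp-203 was at 1.93 TPM from 20.2 expected counts in replicate 1 and at 5.87 TPM from 83.1 in replicate 2. Because that model is short, few counts weigh heavily in TPM: the Lbp ratio of replicate 2 to replicate 1 was 0.889 on gene TPM, 0.806 on Lbp-201 alone and 0.849 on counts over library totals. The retained-intron transcript Lbp-204 was at 2.10 and 1.49 TPM, Lbp-205 at 0.632 and 0.681 TPM, and Lbp-202 at 0.404 and 0.361 TPM. Each of the last 3 held under 5% of the gene's TPM in either library.

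The other genes that sense endotoxin were mostly present at low levels. Of 19 on the list, 17 reached 1 TPM in both libraries and 5 reached 10 TPM, beside 53.1% and 27.8% of protein-coding genes. Tlr4, the signalling receptor, was at 2.50 TPM in replicate 1 and 2.70 TPM in replicate 2. Ly96, which encodes the MD-2 subunit that binds lipopolysaccharide on TLR4, was at 4.75 and 5.67 TPM. The receptor pair and Cd14 thus lay within a few TPM of each other. The highest of the list were Irak1, a kinase below the receptors, at 22.6 and 21.2 TPM, Pltp, the phospholipid transfer protein, at 21.8 and 16.5 TPM, and Itgb2, a leukocyte integrin chain, at 17.1 and 15.8 TPM. Pltp and Lbp belong to the same lipid-binding family, in which Pltp stood at 0.419 and 0.357 times the Lbp level. Bpi, the family member that kills Gram-negative bacteria, had 0 counts in both libraries, where 3 counts would be worth 0.0543 and 0.0403 TPM.

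The serum amyloid A genes formed a pair that was detected, Saa3 and Saa4, and a pair that was not, Saa1 and Saa2. These genes encode small apolipoproteins of high-density lipoprotein. Saa1 and Saa2 are the liver's inducible forms, Saa3 is also made by macrophages and fat cells, and Saa4 is the constitutive form. Summed over all 4, the family was at 19.0 TPM in replicate 1 and 11.9 TPM in replicate 2, a mean of 15.4 ± 5.06 TPM (SD, n = 2).

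Saa3 (ENSMUSG00000040026.7, chr7:46711998-46715700, minus strand) was at 10.9 TPM in replicate 1 and 5.96 TPM in replicate 2, from 146 and 108 counts, a mean of 8.41 ± 3.46 TPM (SD, n = 2). Saa4 (ENSMUSG00000040017.7, chr7:46727998-46732603, minus strand) was at 8.16 and 5.85 TPM, from 487 and 471 counts, a mean of 7.01 ± 1.63 TPM (SD, n = 2). Both were lower in replicate 2, and Saa3 most so. Saa3 was 1.33-fold above Saa4 in replicate 1 and 1.02-fold above it in replicate 2, so the 2 genes were close in TPM, although Saa4 gave more counts because its transcript, at 2015 nt, is longer than the 531 nt of Saa3.

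Saa1 (ENSMUSG00000074115.3, chr7:46740497-46742980, minus strand) had 0 counts in replicate 1 and 1 count in replicate 2, the latter worth 0.0516 TPM with a 95% exact Poisson interval of 0.00119 to 0.262 TPM. Saa2 (ENSMUSG00000057465.4, chr7:46751790-46754313, plus strand) had 0 counts in both libraries. A count of 0 allows up to 3 counts, which for Saa2 would be 0.188 TPM in replicate 1 and 0.140 TPM in replicate 2, and for Saa1 in replicate 1 would be 0.190 TPM. These limits and the intervals cover counting error only, since reads without molecular identifiers are not independent molecules. Against the limit for Saa2 in each library, the measured level of Saa3 was 57.6-fold and 42.6-fold higher. Saa4 was 43.3-fold and 41.9-fold higher, and Apcs 589-fold and 679-fold higher. These folds leave out the counting error of Saa3, Saa4 and Apcs.

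The 4 genes lie within 42.3 kb, and Saa1 and Saa2 point away from each other across a gap of 8.81 kb. The detected genes and the undetected genes were neighbours within this cluster. The upstream sequences of all but Saa4 are shown, since Saa1 and Saa2 were near-identical there and both at the bottom of the range, whereas Saa3 was detected. The printed Saa1 and Saa2 stretches run from -250 to -51, because a further annotated Saa2 start lies in the remaining bases and the same stretch is shown for Saa1. That of Saa3 runs to -1, and its last bases, chr7:46715677-46715700, lie inside the annotated Saa3-201 transcript.
Saa1, chr7:46743031-46743230, minus strand: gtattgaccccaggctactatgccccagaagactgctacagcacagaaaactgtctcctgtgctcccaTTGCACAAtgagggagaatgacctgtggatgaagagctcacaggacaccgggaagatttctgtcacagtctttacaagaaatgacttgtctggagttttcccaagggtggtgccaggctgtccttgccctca
Saa2, chr7:46751583-46751782, plus strand: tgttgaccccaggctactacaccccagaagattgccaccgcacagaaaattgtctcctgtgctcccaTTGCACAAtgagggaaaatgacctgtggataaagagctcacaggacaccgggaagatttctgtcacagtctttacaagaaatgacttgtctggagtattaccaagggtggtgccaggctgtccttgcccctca
Saa3, chr7:46715677-46715926, minus strand: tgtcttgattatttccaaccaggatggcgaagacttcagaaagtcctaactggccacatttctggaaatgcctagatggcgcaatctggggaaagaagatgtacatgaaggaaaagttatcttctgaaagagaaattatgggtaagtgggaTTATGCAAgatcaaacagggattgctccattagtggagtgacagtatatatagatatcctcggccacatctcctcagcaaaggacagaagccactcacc
Over the whole upstream stretch of 250 bases, Saa1 and Saa2 were identical at 94.8% of aligned positions, and Saa1 and Saa3 at 52.2%. TTGCACAA, a C/EBP match, stood from -182 to -175 in Saa1 and from -183 to -176 in Saa2. In Saa3 the match was TTATGCAA from -99 to -92, which reads TTGCNNAA on the other strand. Saa4 held 2 matches, from -245 to -238 and from -52 to -45. TTGCNNAA was thus in the upstream bases of all 4 serum amyloid A genes, detected and undetected. It was in 5 of the 7 sequences searched and in 9.57% of promoters. The motif letters were chosen after the sequences were seen, and the Saa1 and Saa2 stretches are near-identical. The 2 shares are therefore no test of enrichment.

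Saa1 and Saa2 are also alike in their transcripts, so whether reads could have been lost between them was measured on the annotation. Saa1-201 and Saa2-201 were identical at 93.9% of aligned positions. Of all 50-base words, 85.2% of those in Saa1 and 86.7% of those in Saa2 occurred in no other gene, and of 100-base words 100% did in each. Most stretches of either transcript therefore name their gene. Saa3 (98.2%) and Saa4 (98.6%) were more distinct still at 50 bases.

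**Figure D3:**
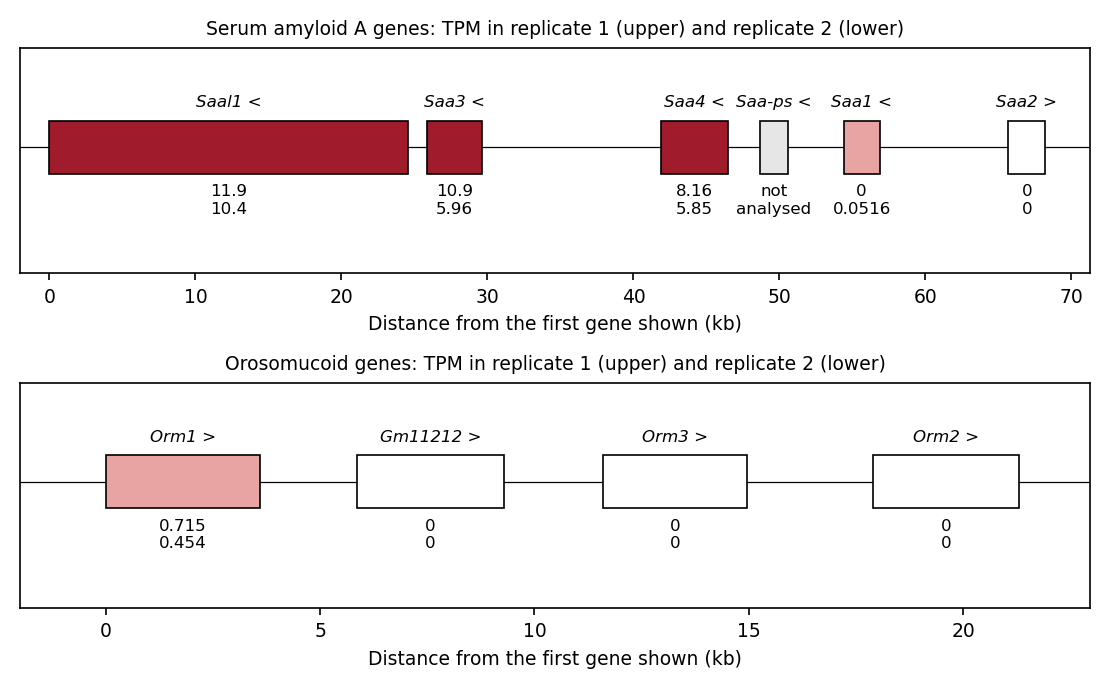
Gene positions in kb from the first gene shown, for the serum amyloid A cluster (upper panel) and the orosomucoid cluster (lower panel), with TPM of replicate 1 above that of replicate 2 under each box and arrowheads for the strand; dark red is 1 TPM or more in both libraries, pale red is a lower value above 0, white is 0 counts in both, and the grey pseudogene was not analysed here. Saa3 and Saa4 are dark and Saa1 and Saa2 are pale and white, while in the lower panel Orm1 is the sole gene of its family with counts.

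Receptors reported for serum amyloid A were detected apart from Ager. Of 7 such genes, 6 reached 1 TPM in both libraries, as did 53.1% of protein-coding genes. Scarb1, the high-density lipoprotein receptor of hepatocytes, was the highest at 80.9 TPM in replicate 1 and 70.8 TPM in replicate 2. Cd36, a scavenger receptor, was at 22.0 and 20.8 TPM, and Fpr1, a formyl peptide receptor of neutrophils, at 7.36 and 5.83 TPM. Ager, which encodes the receptor RAGE, was at 0.642 and 0.815 TPM.

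Orm1 had a few counts in each library, below 1 TPM, and Orm2 had none. The orosomucoids, or alpha-1 acid glycoproteins, are heavily glycosylated lipocalins that carry drugs and lipids in plasma. Orm1 (ENSMUSG00000039196.2, chr4:63344560-63348163, plus strand) was at 0.715 TPM in replicate 1 and 0.454 TPM in replicate 2, from 15 and 13 counts, a mean of 0.584 ± 0.184 TPM (SD, n = 2). Orm2 (ENSMUSG00000061540.3, chr4:63362449-63365878, plus strand) had 0 counts in both libraries, where 3 counts would be worth 0.142 and 0.106 TPM. Against those limits the measured level of Orm1 was 5.02-fold higher in replicate 1 and 4.30-fold higher in replicate 2. The 2 folds leave out the counting error of Orm1, so they are not lower bounds. Orm3, which lies between Orm1 and Orm2 and is not 1 of the 10, had 0 counts in both libraries too. Orm1 was the lowest of the genes seen in both libraries, with Apcs 155-fold and 209-fold above it.

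The Orm1-201 and Orm2-201 transcripts, each of 775 nt, were identical at 91.0% of aligned positions, and 100-base words that occurred in no other gene made up 93.0% of each. At 50 bases the shares were 79.6% for Orm1 and 77.3% for Orm2, the lowest of the 10 genes. Reads from the shared stretches cannot be assigned with certainty, so a few Orm1 counts could be of Orm2 or Orm3. The Orm2 upstream sequence is shown because it held both motifs in capitals and yet the gene had no counts.
Orm2, chr4:63362199-63362448, plus strand: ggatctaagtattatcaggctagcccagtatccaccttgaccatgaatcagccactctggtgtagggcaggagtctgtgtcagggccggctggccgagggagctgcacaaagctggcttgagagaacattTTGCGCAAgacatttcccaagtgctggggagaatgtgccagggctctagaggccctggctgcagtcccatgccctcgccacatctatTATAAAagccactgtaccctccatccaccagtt
TTGCGCAA stood from -120 to -113, which matches TTGCNNAA on both strands, and TATAAA stood from -33 to -28. Of the 7 sequences searched, Crp and Orm2 held TATAAA; Crp was at 60.0 TPM on average and Orm2 had no counts.

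Other lipocalins ranged from 0 counts to 1759 TPM. Of 9 on the list, 5 reached 1 TPM in both, and the other 4, Ptgds, Mup20, Apod and Orm3, were below it in both, a share close to that of protein-coding genes at large. Rbp4, the retinol carrier, was at 1759 TPM in replicate 1 and 1678 TPM in replicate 2. Ambp, the precursor of alpha-1 microglobulin, was at 1376 and 1124 TPM, and Apom, a sphingosine 1-phosphate carrier, at 841 and 789.6 TPM. Lcn2, an acute phase lipocalin that binds bacterial siderophores and is also a neutrophil granule protein, was at 198 and 171 TPM. Lcn2 was 277-fold above Orm1 in replicate 1 and 377-fold above it in replicate 2.

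Further positive acute phase genes outside the 10 were mostly abundant. Of 19, 16 reached 1 TPM in both libraries and 12 reached 100 TPM, beside 53.1% and 4.34% of protein-coding genes. The 19 summed to 10886 TPM in replicate 1 and 10562 TPM in replicate 2. The highest were the metallothioneins Mt1, at 4812 and 5332 TPM, and Mt2, at 1046 and 1233 TPM, followed by the fibrinogen chain Fga, at 1048 and 852 TPM. Hp, or haptoglobin, which binds free haemoglobin, was at 174 and 116 TPM, 1.57-fold and 1.22-fold above Apcs. Hamp, the iron hormone hepcidin, was at 24.4 and 20.97 TPM, below Lbp and above Saa3. The 10 genes were therefore a minor part of the acute phase RNA, and within the positive class the levels ran from 0 (Orm3, Saa2, Orm2) to 5332 TPM.

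The 7 negative acute phase genes, among them Trf, Alb and Apoa1, summed to 34914 TPM in replicate 1 and 26266 TPM in replicate 2. That sum was 139-fold the sum of the 10 genes in replicate 1 and 126-fold in replicate 2. On the log2 scale the ratio of the 10 genes to the negative genes was -7.12 and -6.97, a mean of -7.04 ± 0.10 (SD, n = 2). Alb alone, the gene of albumin, was 52.5-fold and 48.0-fold above Apcs. Both sums were lower in replicate 2, the negative genes at 0.752 and the 10 genes at 0.832 of their level in replicate 1.

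Most cytokines that drive the response were below 1 TPM, a level that 53.1% of protein-coding genes reached in both libraries. Of 11 listed, 2 reached 1 TPM in both libraries: Il1a at 3.13 TPM in replicate 1 and 3.93 TPM in replicate 2, and Ctf1, cardiotrophin of the interleukin 6 family, at 2.34 and 2.64 TPM. Il6 was at 0.166 and 0.237 TPM, Il1b at 0.435 and 0.403 TPM, and Tnf at 0.290 and 0.330 TPM. These 3 main inducers were below 1 TPM in each library. The measurement is of RNA in the liver and does not cover cytokine reaching it from elsewhere.

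Most receptors and all listed relays downstream were detected, beside 53.1% of protein-coding genes. Of 12 cytokine receptors, 10 reached 1 TPM in both libraries, with Il6ra, the interleukin 6 receptor, at 5.84 TPM in replicate 1 and 4.92 TPM in replicate 2 and its partner Il6st, which encodes gp130, at 5.16 and 4.47 TPM. Higher on that list stood Il11ra1, at 40.1 and 33.4 TPM, Il10rb, at 32.2 and 27.7 TPM, and Tnfrsf1a, the main tumour necrosis factor receptor, at 28.7 and 27.2 TPM. Osmr, the oncostatin M receptor, was the lowest at 0.311 and 0.237 TPM. All 19 signalling genes reached 1 TPM in both, with Stat3 at 37.1 and 32.6 TPM and Socs3, its feedback inhibitor and target, at 6.73 and 6.97 TPM. Il6ra, Il6st, Stat3 and Socs3 were thus each above 1 TPM in both libraries, and Il6 itself was below it.

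All 9 transcription factors listed for the acute phase reached 1 TPM in both libraries, as did 53.1% of protein-coding genes. Cebpa, the C/EBP factor of resting hepatocytes, was at 11.9 TPM in replicate 1 and 9.48 TPM in replicate 2. Cebpb, at 12.02 and 12.9 TPM, and Cebpd, at 10.6 and 9.94 TPM, are the forms known to take part in the acute response. The 3 factors were within 1 narrow band, and none was low in either library. The glucocorticoid receptor Nr3c1, which acts with them, was the highest of the 9 at 22.2 and 21.4 TPM. Activity of these proteins was not measured.

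**Figure D4:**
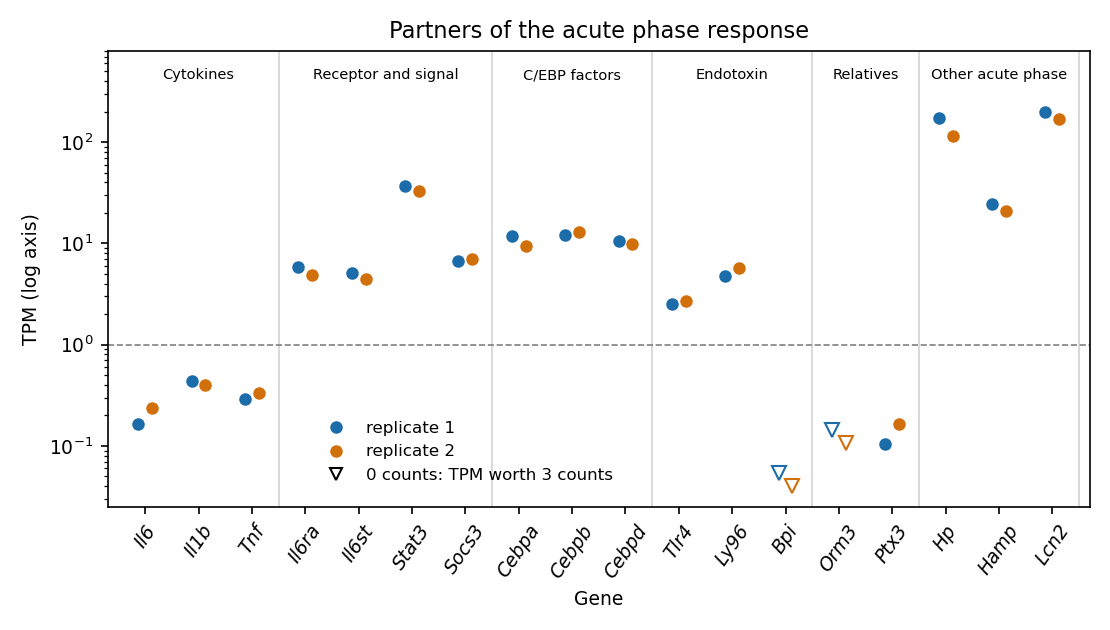
TPM of 18 textbook partners of the response in replicate 1 and replicate 2 on a log axis, grouped by role, with a dashed line at 1 TPM and open triangles at the TPM worth 3 counts for genes with 0 counts. Il6, Il1b and Tnf lie below the line in both libraries, the receptors, Stat3, Socs3 and the 3 C/EBP factors lie above it, and Hp and Lcn2 are the highest shown.

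For each of the 6 detected genes, the plasma protein gene with the closest levels was found among 91 measured, by Euclidean distance on log2(TPM + 1) over the 2 libraries. Apcs lay closest to Apob, the structural protein of low-density lipoprotein, at 124 and 106 TPM, a distance of 0.22. Crp lay closest to Itih1, a chain of the inter-alpha-trypsin inhibitors, at 65.9 and 49.8 TPM, a distance of 0.10. Lbp lay closest to Masp2, a protease of the complement lectin pathway, at 52.2 and 41.3 TPM, a distance of 0.16. The levels of these 3 were therefore those of middle-ranking plasma proteins: of the 91, 49 were above Apcs, 54 above Crp and 56 above Lbp by mean TPM. Saa3 lay closest to Fetub, a fetuin, at 10.6 and 5.95 TPM, a distance of 0.03, and Saa4 to C9, a terminal complement component, at 7.10 and 5.78 TPM, a distance of 0.18. Saa3 and Saa4 stood low among the plasma proteins, with 74 and 76 of the 91 above them. Cd14 lay closest to C6, also a terminal complement component, at 2.73 and 2.55 TPM, a distance of 0.21. With 2 libraries, such closeness is one of level and says little of pattern.

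The 2 libraries were then compared gene by gene. With 1 group of 2 libraries no test of a condition exists, and the smallest p that a sign test (two-sided) of 2 values allows is 0.5. Among the 8781 genes at 5 TPM or more in either library, the 5 of the 10 that qualified were Apcs, Crp, Lbp, Saa3 and Saa4. All 5 were lower in replicate 2 on TPM, as were 60.8% of the 8781. None of the 5 differed more than 2-fold on log2(TPM + 1), and 0.672% of the 8781 did, 0.41% of them downward in replicate 2. On counts over library totals, the 95% exact interval of the ratio lay below 1 for all 5, which held for 24.4% of the 8781, while it lay above 1 for none of the 5 and for 25.2% of the 8781. Scaling to the spike-ins put the median log2 difference of all genes at 0.14, against -0.002 on counts over library totals. With it, the interval lay below 1 for 4 of the 5 and for 5.81% of the 8781. Apcs was the 1 lost, with a ratio of 0.983 and an interval of 0.936 to 1.033 under that scaling. The interval covers counting error only and not the spread between pools of embryos.

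Saa3 differed most. Its count ratio of replicate 2 to replicate 1 was 0.570, with an interval of 0.440 to 0.736. Saa4 followed at 0.745, with an interval of 0.655 to 0.847. The ratio was 0.834 for Crp (0.795 to 0.875), 0.849 for Lbp (0.812 to 0.888) and 0.888 for Apcs (0.846 to 0.933). These 3 lay close together, and their intervals overlapped. Cd14, at 1.10 with an interval of 0.849 to 1.43, and Orm1, at 0.667 with an interval of 0.292 to 1.504, could not be told from 1 at this depth. On log2(TPM + 1), the difference of replicate 2 from replicate 1 was -0.77 for Saa3, -0.42 for Saa4, -0.31 for Crp, -0.22 for Apcs, -0.17 for Lbp and 0.06 for Cd14, beside a median of -0.04 over the 8781 genes.

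Markers of other cells moved between the libraries too. All 8 hepatocyte markers were lower in replicate 2 on TPM, as were 60.8% of the 8781 genes at 5 TPM or more in either library. Their summed level was 0.856 of that in replicate 1, near the TPM ratios of Apcs (0.856), Crp (0.803) and Lbp (0.889). All 5 endothelial markers were lower in replicate 2 as well, with a summed ratio of 0.919. Of 78 plasma protein genes past the same limit, 74 were lower in replicate 2, with a median log2 difference of -0.30. Summed monocyte and macrophage markers, 11 of 12 of them at 1 TPM or more in both, were at 303 TPM in replicate 1 and 278 TPM in replicate 2, a ratio of 0.915. Count ratios within that list ran from 0.568 for Clec4f, a marker of Kupffer cells, the macrophages of the liver, to 1.15 for Ly6c2. Fetub and Fgl1, the plasma protein genes closest to Saa3 in level, had count ratios of 0.567 and 0.499. They were picked on their values in both libraries, so ratios near that of Saa3 follow from the choice. Summed neutrophil markers had a ratio of 1.08, although 5 of the 9 were lower in replicate 2 and their median log2 difference was -0.09. Summed exocrine pancreas markers were at 78.6 and 9.35 TPM, with Pnlip at 0 in both. The adipocyte genes Adipoq, Plin1 and Lep were at 0 in both libraries, and the adipocyte sum of 17.9 and 20.7 TPM was that of Fabp4, which other cells express as well. The part of these cells in the difference of Saa3, or of any other of the 10 genes, was not tested.

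**Figure D5:**
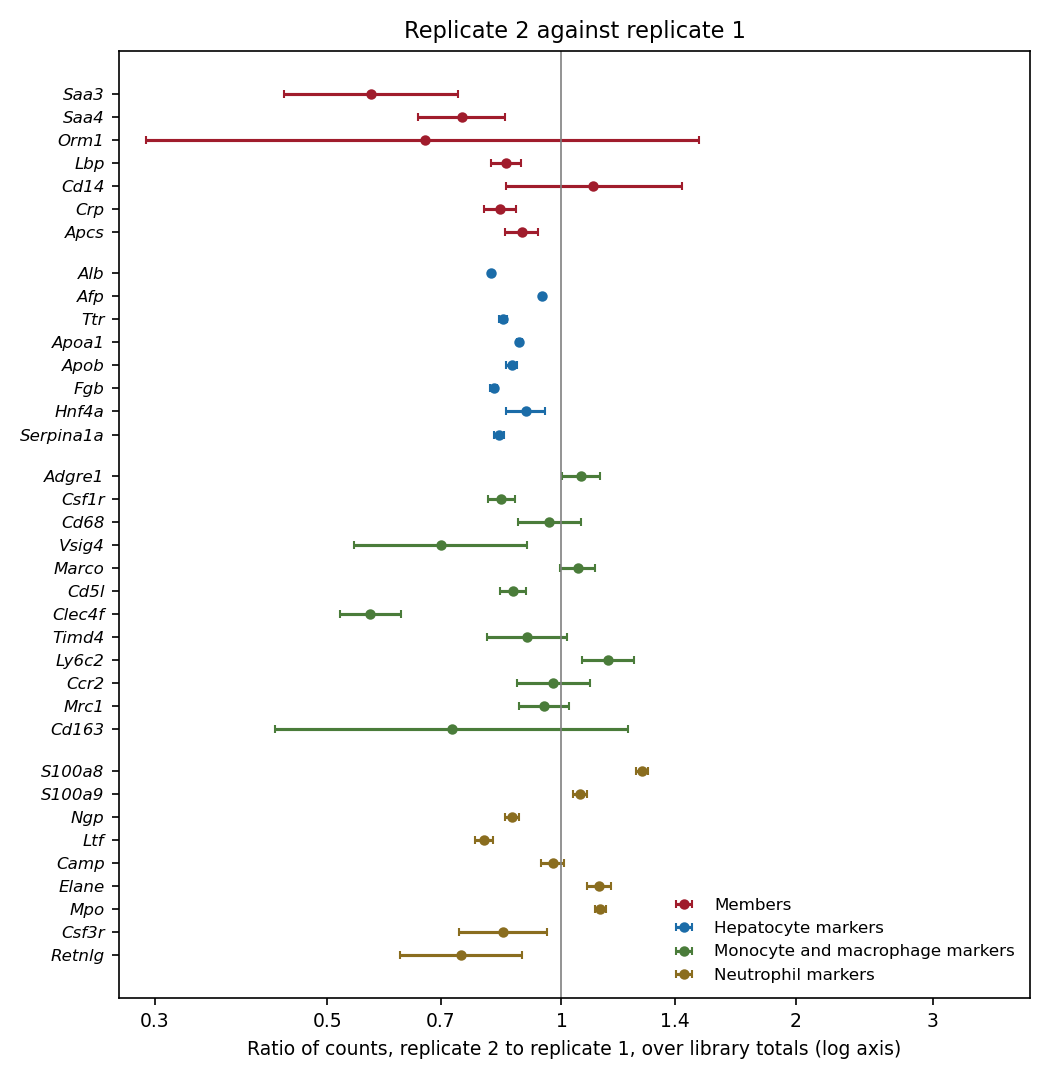
Ratio of counts in replicate 2 to replicate 1 over library totals, on a log axis, with 95% exact intervals, for the 7 genes of the group with counts in both libraries and for hepatocyte, macrophage and neutrophil markers. Crp, Lbp and Apcs, between 0.834 and 0.888, lie among the hepatocyte markers, Saa3 lies lower at 0.570, the 12 macrophage markers run from 0.568 to 1.15, and Cd14 and Orm1 have intervals that span 1.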

How the data were processed

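Both libraries came with a gene table and a transcript table. Per the companion descriptions and the labels, they were made on mm10 with annotation M4. Aligner, quantifier and strandedness: not given in the sources used here. Expected counts were estimated by the authors per gene or transcript and left unscaled. TPM, and its posterior mean, was deposited by the authors as a length-corrected share of a total that includes spike-ins. Effective lengths were mostly 99 nt below lengths, which raises the TPM of very short models.

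TPM was rescaled to 1000000 after 97 spike-in entries were left out. The 26248 entries with a numeric identifier held 14.96 and 24.94 expected counts and were left out. Names and positions were taken from GENCODE M21 (GRCm38, the same assembly as mm10), which named 42462 of 43346 genes. Ratios used log2(TPM + 1), or expected counts over library totals with 95% exact intervals (Poisson for a level, conditional binomial for a ratio; counts rounded to whole numbers), for genes at 5 TPM or more in either library. Zero counts were given the limit of 3 counts. Ratio rules were tested on simulated data.

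The members and gene lists were chosen with earlier results of these data known, and the motif letters after the sequences were seen. All 10 members are named; of other lists, the 3 highest and the lowest by mean TPM and 18 textbook partners could be named. Clec4f, Ly6c2, Cd163, Cd5l, Pnlip, Ptgds, Mup20, Apod, Gm38051, Fabp4, Adipoq, Plin1 and Lep were named after their values were seen. Alternatives were other detection limits, pseudocounts, normalisations (TMM of edgeR 4.0.16, median of ratios of DESeq2 1.42.0, spike-ins) and each library alone.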

Additional observations from a re-analysis of the deposited data

How the results depend on the processing

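No paired analysis was possible because both libraries belong to 1 group. At a detection limit of 10 TPM, 3 of the 10 genes were detected in place of 6. Leaving adult globins out of the total raised the summed level of the 10 genes from 230.3 to 374 TPM, since every TPM is a share of the total. On expected counts over library totals, which ignore transcript length, the log2 ratio of the 10 genes to the negative acute phase genes was -7.20 in place of -7.04. From 1 library alone, the summed level ran from 209 to 251 TPM, that log2 ratio from -7.12 to -6.97, the share of Lbp-201 from 81.8% to 90.2% and that of Crp-201 from 99.8% to 99.9%, and 6 genes were detected. No member passed 2-fold between the libraries under any alternative run. Counts scaled to spike-ins gave a median log2 difference of all genes tested that was shifted by 0.18 from that on TPM. The differences of replicate 2 from replicate 1 were then -0.02 for Apcs, -0.11 for Crp and -0.09 for Lbp. Over all settings the difference ran from -0.86 to -0.51 for Saa3, -0.47 to -0.26 for Saa4 and 0.06 to 0.21 for Cd14, and no value reversed. Under TMM and median-of-ratios scaling, 5 of the 5 genes tested had a count ratio interval below 1, and under spike-in scaling 4 did, without Apcs. These intervals and the 3 Lbp ratios by transcript and by counts were added after the data were seen. Depth limits Orm1, Saa1, Saa2 and Orm2, whose counts were 15 or fewer.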
